A study of Mus musculus with 112 samples.

Results

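The gene of the transcription factor NRF2 (Nfe2l2), the gene of its inhibitor KEAP1 (Keap1) and 8 genes whose proteins act beside them were followed through a DNA methylation (DNAme) study of mouse sperm and prefrontal cortex. The 10 genes were Nfe2l2, Keap1, Cul3, Nfe2l1, Nfe2l3, Bach1, Bach2, Mafg, Maff and Mafk, out of 55413 annotated genes. Every CpG cytosine from 2 kb upstream of the start of each gene to its end in the mm10 annotation was taken. This gave 2553 of the 4388579 positions that had a value in at least a single library. In mm10 the genes lie at chr2:75675513-75704641 (Nfe2l2), chr9:21229730-21239361 (Keap1), chr1:80264923-80340480 (Cul3), chr11:96817414-96829968 (Nfe2l1), chr6:51432670-51458768 (Nfe2l3), chr16:87698945-87733346 (Bach1), chr4:32238804-32586108 (Bach2), chr11:120625117-120633600 (Mafg), chr15:79346621-79359076 (Maff) and chr5:139791513-139802653 (Mafk). Values were present for 9.70% (Nfe2l3) to 33.8% (Mafg) of the CpG cytosines in these windows, 121 in Nfe2l2, 206 in Keap1 and 976 in Bach2, the longest gene.

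NRF2 is held in the cytoplasm by KEAP1, an adaptor of the CUL3 ubiquitin ligase, and is broken down there. Oxidants and electrophiles such as those in cigarette smoke (CS) modify cysteines of KEAP1, NRF2 then enters the nucleus, pairs with a small MAF protein (MAFF, MAFG or MAFK) and switches on antioxidant genes through antioxidant response elements. NFE2L1 and NFE2L3 are relatives of NRF2 that bind similar sites with the same partners, and BACH1 and BACH2 also pair with small MAF proteins but repress from those sites.

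F0 males were wild type (WT) C57BL/6J or Nrf2-/-, a separate stock on a C57BL/6J background that carries a targeted Nfe2l2 in all cells. Smoked males began whole-body CS at 6 to 7 weeks of age, for 60 days on 5 days a week. Among F0 sperm libraries 10 were of control and 9 of smoked Nrf2-/- males, and 10 of control and 9 of smoked WT males. A further 9, 10 and 10 were of WT males left without CS after exposure (recovery 1, 2 and 3, spread over 28 to 171 days). Smoked WT males outside the recovery groups were collected within 3 days of the last exposure. The methods give no separate collection time for smoked Nrf2-/- males. Sons had CAST/EiJ mothers and were collected at 14 to 17 weeks. For F1 sperm, 6 sons had a control and 7 a smoked WT sire. For F1 brain, 8 sons were taken for each genotype and exposure of the sire. Sons of Nrf2-/- sires were Nrf2+/-, with an intact maternal allele of another strain. The sons themselves were never exposed.

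The assay, reduced representation bisulfite sequencing (RRBS), reads CpG cytosines beside CCGG (MspI) and TCGA (TaqαI) cut sites. The value at a position is the percent of reads that stayed unconverted. A position without a value had no counted reads or too few of them, and the deposited values do not tell why. The read depth behind a percent is unknown, and 800578 to 1855546 positions had a value in an F0 sperm library, 510212 to 1429060 in F1 sperm and 1332684 to 1711088 in brain. The promoters of 9 germline genes had a median of 1.35% in control WT F0 sperm and 89.2% in control WT brain, and maternally methylated imprinted promoters a median of 0.785% (8 genes) and 25.4% (10 genes), and both lists are known to be low in sperm. The neural list did not separate the tissues. Of its 4 genes, 1 was measured in both, at 0.794% in F1 sperm and 1.08% in brain, and a second in F0 sperm alone, at 98.05%. All Nrf2-/- F0 libraries carried lower library numbers in the column headers than all WT libraries, as did brain libraries of Nrf2-/- sires, so genotype and whatever these numbers follow cannot be told apart. A sample of sons of control WT sires (brain) carries an Nrf2-/- strain label although its title says WT, and its column could not be told from the others.

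The stretch of Nfe2l2 exon 5 that had no value in any Nrf2-/- F0 sperm library is printed first, since the largest difference within this gene lies there. It is reference sequence of the minus strand, the strand of Nfe2l2, and capitals mark the TCGA cut sites. It lies at chr2:75676208-75676370 (mm10, minus strand), in coding exon 5, and holds part of the code for the basic DNA-binding region of NRF2.
Nfe2l2 exon 5: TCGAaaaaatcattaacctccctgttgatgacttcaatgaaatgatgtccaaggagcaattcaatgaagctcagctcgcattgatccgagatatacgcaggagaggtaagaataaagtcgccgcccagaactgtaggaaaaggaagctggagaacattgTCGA

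The regions that differed between brain and sperm are shown by 5 examples from sons of control WT sires, with every CpG in capitals. In that comparison they are the regions of Bach2, Keap1 and Bach1 with the largest called difference, the Bach2 region with the largest fall, and a further Keap1 region in exon 2. All are mm10 and are written on the strand of their gene, at chr4:32257978-32258208 (plus), chr4:32300434-32300540 (plus), chr9:21231707-21231782 (minus), chr9:21237203-21237336 (minus) and chr16:87722496-87722601 (plus). The Keap1 sequences encode part of a Kelch repeat (exon 4) and of the BTB domain (exon 2), and the Bach1 sequence (exon 4) encodes part of its basic leucine zipper.
Bach2 32257979: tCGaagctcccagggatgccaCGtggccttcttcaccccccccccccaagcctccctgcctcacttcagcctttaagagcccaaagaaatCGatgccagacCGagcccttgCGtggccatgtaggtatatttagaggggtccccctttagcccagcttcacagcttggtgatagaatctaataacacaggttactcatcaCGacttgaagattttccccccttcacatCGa
Bach2 32300435: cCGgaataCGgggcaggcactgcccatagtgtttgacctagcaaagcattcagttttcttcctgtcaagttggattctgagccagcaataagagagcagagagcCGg
Keap1 21231708: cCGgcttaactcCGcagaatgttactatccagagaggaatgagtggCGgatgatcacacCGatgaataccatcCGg
Keap1 21237204: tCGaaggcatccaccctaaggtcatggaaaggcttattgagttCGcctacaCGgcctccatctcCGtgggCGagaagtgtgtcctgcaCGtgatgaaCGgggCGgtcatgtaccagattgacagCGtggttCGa
Bach1 87722497: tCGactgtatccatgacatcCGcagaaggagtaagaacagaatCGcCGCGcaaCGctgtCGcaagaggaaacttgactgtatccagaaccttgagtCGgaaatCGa

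Part of Nfe2l2 had no values in Nrf2-/- F0 sperm. Of 73 Nfe2l2 positions tested in F0 sperm, 22 had a value in fewer Nrf2-/- than WT libraries (Fisher's exact test per position, two-sided, Benjamini-Hochberg adjusted over 1712217 positions of the genome). Over all positions tested 0.129% were called in this direction and 0.0465% in the other. The other 9 genes had 0 called positions in F0 sperm, and the smallest adjusted p among them was 0.291, in Bach2. Their mean share of libraries with a value was also lower in Nrf2-/-. The gap was smallest in Maff (87.05% in WT and 85.2% in Nrf2-/-) and largest in Mafk (47.1% and 35.3%). The shares themselves were lowest in Nfe2l3 (30.7% and 20.8%). In Nfe2l2 the mean share was 75.03% and 44.3%. F0 libraries of control and smoked Nrf2-/- males had medians of 1.12e+06 and 1.04e+06 positions with a value, against 1.13e+06 to 1.33e+06 in the WT groups.

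In exon 5 all 4 positions tested were called, at 75676209, 75676248, 75676251 and 75676369 of chromosome 2. Each had a value in 48 of 48 WT libraries and in 0 of 19 Nrf2-/- libraries (adjusted p = 1.29e-13). The other 18 lay upstream, between 75704833 and 75705068, at -192 to -427 bp from the gene start. At these Nfe2l2 positions a value was present in 32 to 37 of 48 WT libraries and again in 0 of 19 Nrf2-/- libraries, with adjusted p between 2.47e-06 and 0.000155. By group, at least a single upstream position had a value in 10 of 10 control WT, 9 of 9 smoked WT, 9 of 9 recovery 1, 10 of 10 recovery 2 and 9 of 10 recovery 3 libraries, against 0 of 10 control and 0 of 9 smoked Nrf2-/- libraries. The WT and Nrf2-/- libraries were thus fully separated in exon 5. The upstream count by group pools only the 18 positions that this same test had called. At each of these, part of the WT libraries also lacked a value. The positions within a stretch share reads and are not independent.

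Other parts of Nfe2l2 had values in both genotypes. The nearest tested Nfe2l2 position on the 5′ side of exon 5 was 75679351, with values in 48 of 48 WT and 19 of 19 Nrf2-/- libraries. The 28463 bp between the stretches held 32 tested positions with 0 called, and the position nearest to the upstream stretch on its gene side, 75703997, had a value in 43 WT and 14 Nrf2-/- libraries. On the far side, the position 75705067 of the stretch itself had a value in 17 WT and 2 Nrf2-/- libraries, and 75705076, in the next CCGG, in 47 WT and 15 Nrf2-/- libraries. Farther upstream 18 positions were tested and 0 were called. With the unexposed groups alone (control WT against control Nrf2-/-), 4 of 36 Nfe2l2 positions were called. Over all positions the share was 0.0425% in this direction and 0.0221% in the other. The 4 were the exon 5 positions, and the 18 upstream ones had a value in fewer than 10 of those libraries and were not tested.

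In brain, sons of Nrf2-/- sires, which carry an intact maternal allele, had values in exon 5 in 15 or 16 of 16 libraries and somewhere in the upstream stretch in all 16. At 7 Nfe2l2 positions from 75704886 to 75704935, a span of 50 bp, a value was present in 7 of 8 brain libraries of control WT and 5 of 8 of smoked WT sires, and in 0 of 8 of control and 0 of 8 of smoked Nrf2-/- sires. None of the 57 Nfe2l2 positions tested in brain was called by Fisher's exact test (these 7 had an unadjusted p of 1.61e-05 and an adjusted p of 0.0549), against 0.015% of all positions in the same direction and 0.00851% in the other. Only these 7 of the 57 had an unadjusted p under 0.05 in this same test, so their counts by group are no further test. The share of all positions at that level is not given here. The 7 positions fit within a single read of 50 cycles, so they may rest on the same reads. In F1 sperm, the upstream stretch had any value in 0 of 6 libraries of sons of control WT and 1 of 7 of smoked WT sires. These sons of WT sires thus gave next to no values there either. The CAST/EiJ sequence of this stretch was not analysed here.

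**Figure D1:**
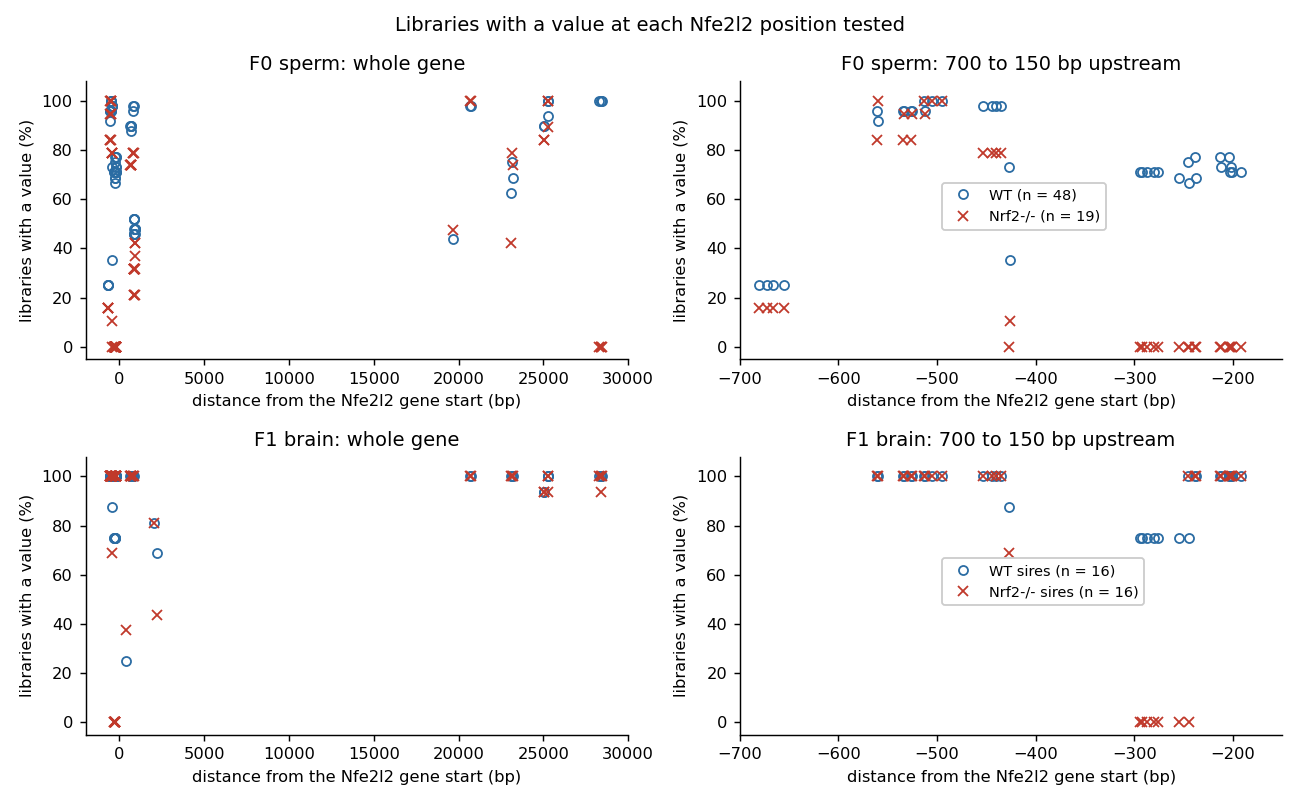
Percent of libraries with a value at each tested Nfe2l2 position (y axis) against distance from the gene start in bp (x axis), for WT (circles) and Nrf2-/- (crosses), in F0 sperm (top) and F1 brain by genotype of the sire (bottom), over the whole gene (left) and the upstream stretch (right). In F0 sperm the Nrf2-/- crosses sit at 0 at 4 positions of exon 5, where WT is at 48 of 48 libraries, and at 18 upstream positions. In brain, 7 upstream positions are at 0 of 16 for Nrf2-/- sires and 12 of 16 for WT sires.

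The missing values were not particular to Nfe2l2. Of 644145 positions with a value in at least 90% of WT F0 sperm libraries, 655 had a value in at most 10% of the Nrf2-/- libraries, and 4 of them were the exon 5 positions. The other 651 lay outside Nfe2l2, and 207 of these were on the same chromosome, in a segment around the gene. By chromosome, 343 lay on chromosome 13 (75774682 to 107713320) and 211 on chromosome 2 (58490216 to 76423629). A further 77 lay on chromosome 6 (3445016 to 53533959) and 19 on chromosome 11. The chromosome 6 span holds the member Nfe2l3. There 51219528, before the gene, and 52208947, after it, each had a value in 48 WT and 1 Nrf2-/- libraries. Nfe2l3 itself had 22 positions tested and 0 called. Within the chromosome 2 segment such positions were 3.94% of the 5356 positions with a value in at least 90% of WT libraries, so most positions there had values in more than 10% of the Nrf2-/- libraries. Next to Nfe2l2 on its 3′ side, the positions 75670163, 75670368 and 75670389 had a value in 46, 47 and 47 WT libraries and in 0 Nrf2-/- libraries, while 75670053 had one in 37 WT and 10 Nrf2-/- libraries. On the other side, 75712612 had a value in 41 WT and 2 Nrf2-/- libraries (Fisher's exact test, adjusted p = 1.29e-05), with 75712343 before it at 41 and 18. Farther out, 75725814 to 75726044 had 47 or 48 WT and 0 Nrf2-/- libraries, with 75720650 before them at 48 and 19. The source of the missing values, in the gene as around it, was not tested. The genes with most of the 655 positions were Mast4 (21), Iqgap2 (19) and Mctp1 (16), none of them a member.

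Where values existed, exon 5 was highly methylated and the upstream stretch nearly unmethylated. Mean DNAme over the 4 exon 5 positions of Nfe2l2 in F0 sperm was 93.9% ± 3.78 in control WT males (SD, n = 10) and 93.1% ± 2.87 in smoked WT males (n = 9). After CS it was 96.2% ± 3.43 for recovery 1 (n = 9), 94.8% ± 1.36 for recovery 2 (n = 10) and 95.8% ± 3.99 for recovery 3 (n = 10). Brain had 92.1% ± 1.26 in sons of control WT sires, 90.3% ± 3.42 in sons of smoked WT, 91.8% ± 1.92 in sons of control Nrf2-/- and 91.7% ± 2.34 in sons of smoked Nrf2-/- sires (n = 8 each). The libraries of these groups overlapped, between 86.01% and 100% in F0 sperm and between 85.05% and 95.6% in brain. Over 9 comparisons within a tissue and generation, 2-sided permutation tests (exact where a group had fewer than 10 libraries) gave p between 0.187 and 0.952 and adjusted p of at least 0.784. One of the 9 set 2 against 4 F1 sperm libraries, with means of 93.6% and 81.2%, where the smallest p an exact test can give is 0.133, so it could not pass the threshold. No Nrf2-/- F0 library had a value in exon 5. Brain values in sons of Nrf2-/- sires may thus come from the maternal allele alone, against both alleles in sons of WT sires. The allele behind the values was not tested. The upstream stretch had group means of 0.338% to 0.747% in WT F0 sperm and 0.972% to 2.07% in brain.

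Within a tissue and generation, a position was scoreable when no group had fewer than 4 libraries with a value. Scoreable positions at most 100 bp apart were joined into regions of at least 3 positions and more than 50 bp, and each library got 1 value per region, adjusted for which positions it had, so that a value can pass 0 or 100 slightly. The 10 genes held 30 such regions in F0 sperm (of 62831), 13 in F1 sperm (of 33449) and 38 in brain (of 80920). Nfe2l3 had no scoreable position in sperm. The exon 5 positions and the 18 called upstream positions of Nfe2l2 could not enter the F0 regions, since no Nrf2-/- library had them.

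The promoters of these genes, within 1 kb of the gene start, had low group means in each of the 3 sets of libraries. In F0 sperm 9 promoters were measured, and their group means lay between 0% and 1.22%. Nfe2l2 itself had 0.98% in control WT, 0.604% in smoked WT, 0.47% in control Nrf2-/- and 0.533% in smoked Nrf2-/- sperm over 24 positions. These leave out the 18 upstream positions that had no value in Nrf2-/- sperm. Keap1 had 0.568%, 0.601%, 0.609% and 0.393% in the same groups. In brain all 10 promoters were measured, with group means from 0.491% (Bach1, smoked WT sires) to 4.34% (Maff, control Nrf2-/- sires). Maff, whose promoter had the lowest CpG density of the 10 (observed over expected 0.371, against 0.589 to 0.877 in the others), and Nfe2l2, with 2.39% to 3.30%, were the highest in all 4 brain groups.

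Gene bodies spread far more widely than promoters. In control WT F0 sperm the body of Nfe2l2 had a mean of 91.03%, Cul3 89.6% and Bach1 88.6%. Bach2 was at 62.7%, Mafg at 58.3%, Nfe2l1 at 36.4%, Keap1 at 28.5% and Maff at 11.2%. The order of the first 3 cannot be read as a ranking, since their libraries overlapped. Body values are means over the few positions that RRBS reads, from 5 in Cul3 to 121 in Bach2.

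**Figure D2:**
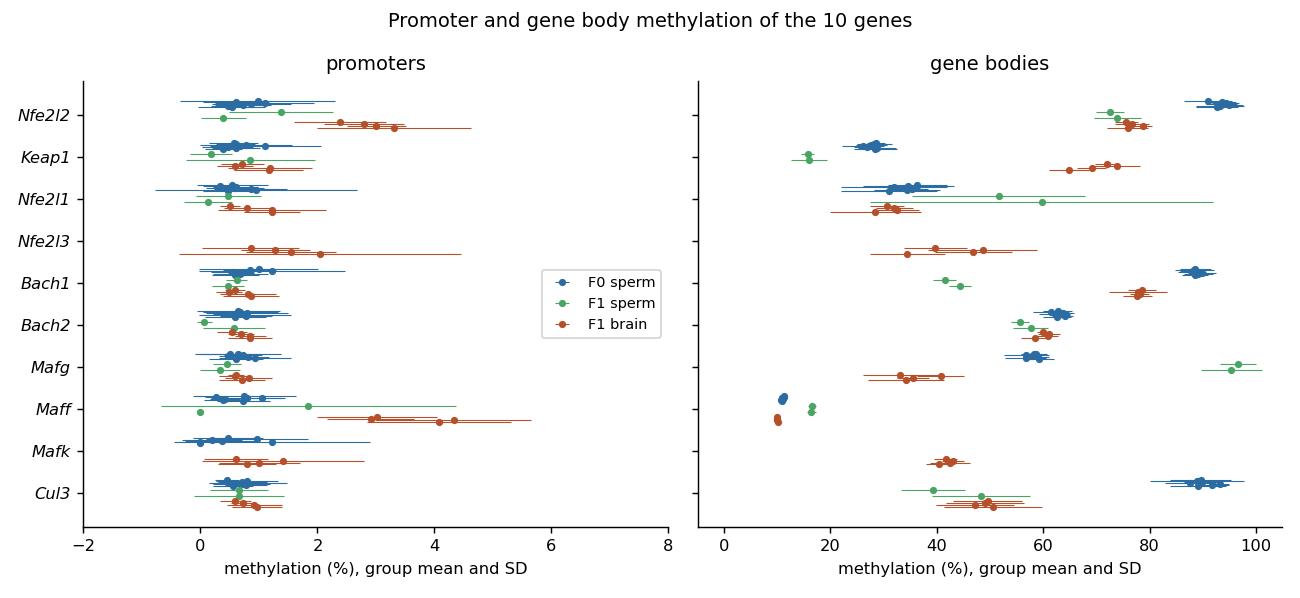
Group means (points) and SD (bars) of methylation percent in the promoter (left) and gene body (right) of each of the 10 genes (y axis), in every F0 sperm, F1 sperm and F1 brain group. Promoter means stay at or below 4.34%, while body means run from 9.86% (Maff, brain) to 96.6% (Mafg, F1 sperm). Positions differ between tissues and generations, so colours are not compared within a gene.

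The next question was whether CS, time after CS or loss of NRF2 changed these genes in sperm. Control WT males were collected with the smoked WT males at the end of exposure, so for the recovery groups time after CS and age at collection cannot be told apart. No region of the 10 genes was called in any of the 7 F0 comparisons (limma over all regions, Benjamini-Hochberg adjusted, threshold 0.05), and the 6 comparisons with control WT share those 10 libraries. Over all regions, 0.00159% were called for smoked WT, 0% for recovery 1, 0.00637% for recovery 2, 0.043% for recovery 3, 0.409% for control Nrf2-/- and 0.357% for smoked Nrf2-/-, all against control WT, and 0.00637% for smoked against control Nrf2-/-. At an unadjusted p under 0.05, the counts among the 30 member regions were 1, 4, 3, 4, 3, 3 and 2 in this order, beside 3.91%, 5.28%, 4.15%, 6.31%, 7.83%, 7.9% and 5.75% of all regions. The difference of the smoke change between genotypes was called in 0 of 30 regions and had an unadjusted p under 0.05 in 1, beside 0% and 4.19% of all regions. Median differences over the 30 regions ran from -0.177 to 0.141 points, close to those of all regions (-0.15 to 0.043 points).

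Of the 9 member promoters and 8 bodies in F0 sperm, 0 were called by limma in any comparison, beside 0.0289% of promoters and 0.139% of bodies over the 7 comparisons together. At an unadjusted p under 0.05, 1 promoter test and 2 body tests were counted, out of 9 promoters and 8 bodies in each of the 7 comparisons. Over all genes the shares of such tests were 5.24% and 5.81%. The values closest to a call are given by role, with the rule that the member region of smallest unadjusted p is named for each comparison.

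In Keap1, a region across the start of exon 3 (chr9:21234012-21234132) had a median of 10.4% in control WT (3.13% to 22.5%, n = 10) and 7.05% in smoked WT sperm (1.59% to 10.4%, n = 9), a difference of -4.35 ± 2.08 points (SE, limma unadjusted p = 0.0403, adjusted p = 1.0). The groups overlapped, and 5 of the 10 control libraries lay above every smoked one. The exon 4 region of Keap1 had a median of 14.6% in control WT (8.19% to 24.6%) and 9.93% in recovery 3 (2.604% to 16.02%), with a difference of -5.48 ± 2.15 points and an adjusted p of 0.715. Its means in the other groups were 12.8% in smoked WT, 10.8% in recovery 1, 13.1% in recovery 2, 16.3% in control Nrf2-/- and 17.2% in smoked Nrf2-/- sperm. The means of all CS-exposed WT groups lay below control WT and those of both Nrf2-/- groups above it, and none of these differences was called.

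In Bach2, a region centred at -1383 bp from the gene start (chr4:32237382-32237460) had a median of 34.3% in control WT (23.3% to 43.6%, n = 9) and 20.7% in recovery 1 (16.1% to 32.6%, n = 9). The difference was -10.3 ± 3.89 points with an adjusted p of 0.905. The means were 28.5% in smoked WT, 29.2% in recovery 2, 24.7% in recovery 3, 25.4% in control Nrf2-/- and 28.3% in smoked Nrf2-/- sperm, so that control WT was the highest of the 7 groups. An intron region of Bach2 (chr4:32257979-32258402) had a median of 4.75% in control WT (1.71% to 13.2%) and 7.42% in smoked Nrf2-/- sperm (4.85% to 15.6%), a difference of 3.07 ± 1.15 points (adjusted p = 0.402). Its mean went from 5.29% to 3.54% with smoke in WT and from 5.96% to 8.36% in Nrf2-/- sperm, and these changes of opposite sign differed by 4.15 ± 1.63 points (adjusted p = 1.0). In another Bach2 intron (chr4:32424321-32424378) the mean was 97.7% in control WT and 94.2% in recovery 2, where a library lay at 79.8% and the median at 97.9%. Bach1 exon 4 had a mean of 96.4% ± 1.85 in control WT and 94.03% ± 2.73 in control Nrf2-/- sperm (n = 10 each, difference -2.37 ± 0.92 points, adjusted p = 0.419).

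Among the small MAF genes, an intron region of Mafg (chr11:120632543-120632849) had a mean of 0.445% ± 0.529 in control and 1.12% ± 1.09 in smoked Nrf2-/- sperm (difference 0.672 points, adjusted p = 0.857). With positions farther apart joined, the difference was -0.153 points. No region of Nfe2l2, Cul3, Nfe2l1, Maff or Mafk had the smallest p of an F0 comparison, and Nfe2l3 had no F0 region to test.

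**Figure D3:**
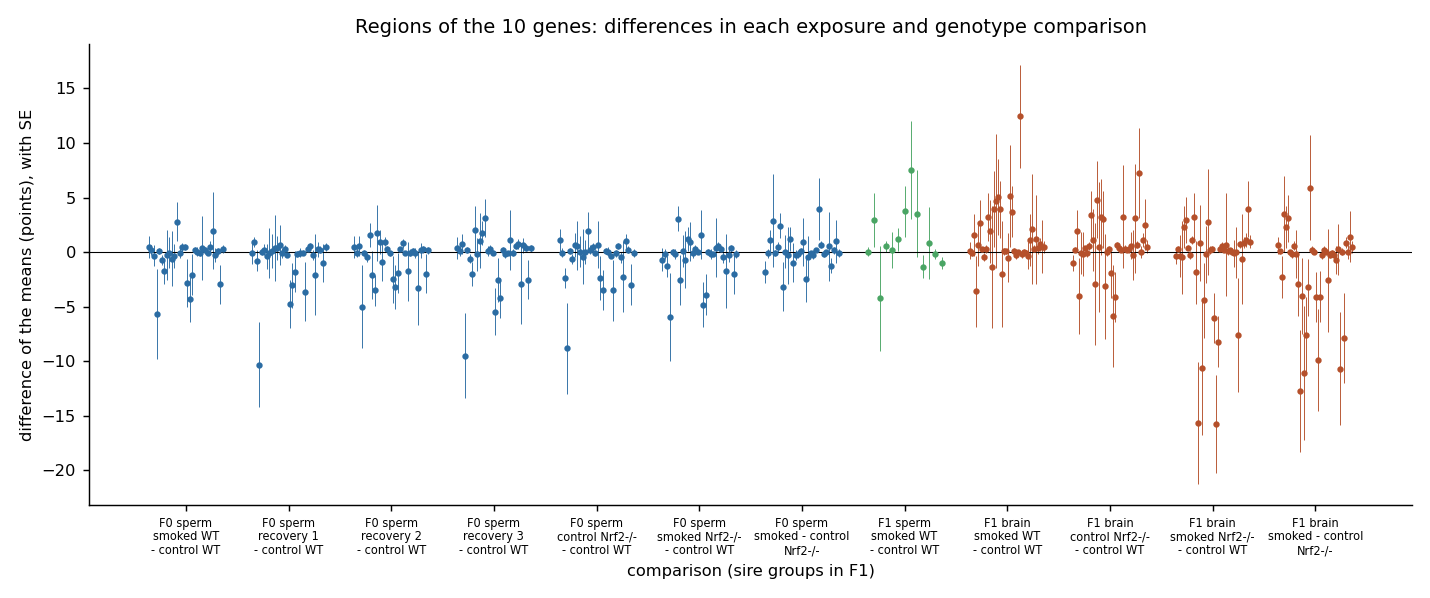
Difference of the group means in points with its SE (y axis) for every region of the 10 genes, in each of the 12 comparisons (x axis) of F0 sperm, F1 sperm and F1 brain. Most points sit near 0, with a range of -10.3 to 3.92 points in F0 sperm, and no point was called. Points are ordered by gene within a comparison.

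Paternal CS left no called change in sons. The sire of each library is not known here, so sons that may share a sire were treated as independent. In F1 sperm 0 of 13 regions, 0 of 8 promoters and 0 of 8 bodies were called, beside 0% of all regions, 0% of promoters and 0% of bodies, and 0 of the 13 had an unadjusted p under 0.05, beside 5.38% of all regions. At that level 1 promoter and 1 body were counted, beside 5.37% of all promoters and 7.36% of all bodies. The region of smallest p was upstream of Nfe2l2 (chr2:75705136-75705321). Its values were 0.455%, 1.17%, 2.597% and 1.299% in the 4 libraries of sons of control WT sires that had enough positions, and 0% to 0.911% with a median of 0.333% in 6 of sons of smoked WT sires. The groups overlapped (difference -0.99 ± 0.527 points, adjusted p = 0.902). With the strands averaged the difference was -0.457 points (adjusted p = 0.902).

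In brain, 0 of 38 regions were called in any of the 4 comparisons, beside 0.00124% of all regions for smoked WT, 0.0124% for control Nrf2-/- and 0.0198% for smoked Nrf2-/- sires against control WT sires, and 0.00124% for smoked against control Nrf2-/- sires. At an unadjusted p under 0.05 the counts were 1, 1, 6 and 4 of 38, beside 4.16%, 7.77%, 10.4% and 9.63% of all regions. The difference of the smoke change between genotypes was called in 0 of 38 and had an unadjusted p under 0.05 in 4, beside 0% and 9.42%. Member promoters and bodies had 0 calls among 10 each, beside 0.00729% of promoters and 0.00257% of bodies over the 4 comparisons together. At an unadjusted p under 0.05, 4 promoter tests and 7 body tests were counted, out of 10 promoters and 10 bodies in each of the 4 comparisons. A gene can thus count more than once. Over all genes the shares of such tests were 11.2% and 9.69%.

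Keap1 had the smallest p of the 10 genes in the methylation tests in brain. Its body, over 22 positions, had a median of 72.4% in sons of control WT (69.3% to 75.4%), 74.9% in sons of smoked WT (66.7% to 80.2%), 70.01% in sons of control Nrf2-/- (63.3% to 71.8%) and 64.5% in sons of smoked Nrf2-/- sires (59.04% to 70.3%, n = 8 each). Sons of smoked Nrf2-/- sires overlapped sons of control WT sires by their highest library. The difference between them was -7.05 ± 1.65 points (limma unadjusted p = 0.000183), which failed the adjustment over all 19469 bodies (adjusted p = 0.173). Of the 5 Keap1 regions, 3 had lower means in the same comparison and the 2 in exon 1, near 1% in both groups, had higher ones, and none was called. The exon 2 region had means of 55.6% ± 3.64 and 47.4% ± 6.35 (difference -8.21 ± 2.32 points, adjusted p = 0.344), the exon 3 region 81.4% ± 4.24 and 65.6% ± 13.7 (adjusted p = 0.349), and the exon 4 region 71.8% and 65.8% (adjusted p = 0.424). In exon 3 a single library of sons of smoked Nrf2-/- sires lay at 32.9% and the others of that group at 66.25% to 76.6%. The overall level of the libraries was 31.02% ± 0.244 in sons of control WT and 30.9% ± 0.398 in sons of smoked Nrf2-/- sires, and the median body of all genes differed by -0.81 points. The median of the 10 imprinted promoters was 25.4% and 15.6% in these groups, and that of the 9 germline promoters 89.2% and 88.2%. The part of these shifts in the Keap1 value was not tested. Without the library of lowest overall level in each smoked-sire group the body difference was -6.22 points (adjusted p = 0.248).

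Other brain values were less far from their spread. An untranslated exon of Mafg (chr11:120628232-120628314) had a median of 57.1% in sons of control WT (35.4% to 68.1%) and 69.7% in sons of smoked WT sires (54.98% to 77.2%), a difference of 12.4 ± 4.71 points (adjusted p = 1.0). A Bach2 intron region (chr4:32300435-32300539) had a median of 37.1% in sons of control Nrf2-/- (31.1% to 53.2%) and 24.3% in sons of smoked Nrf2-/- sires (15.02% to 40.7%), a difference of -12.8 ± 5.58 points (adjusted p = 0.462). With positions farther apart joined it was -7.49 points (adjusted p = 0.585). Another Bach2 intron (chr4:32564986-32565101) gave the smallest p for the difference of smoke changes, -12.6 ± 4.9 points (adjusted p = 0.424). The promoter region of Nfe2l1 had a mean of 0.513% ± 0.182 in sons of control WT and 1.18% ± 0.895 in sons of control Nrf2-/- sires (adjusted p = 0.64). All 10 promoters had a larger mean in sons of control Nrf2-/- and of smoked Nrf2-/- than of control WT sires, by a median of 0.434 and 0.408 points. The median over all promoters was 0.416 and 0.326 points, so this was no property of the 10 genes.

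**Figure D4:**
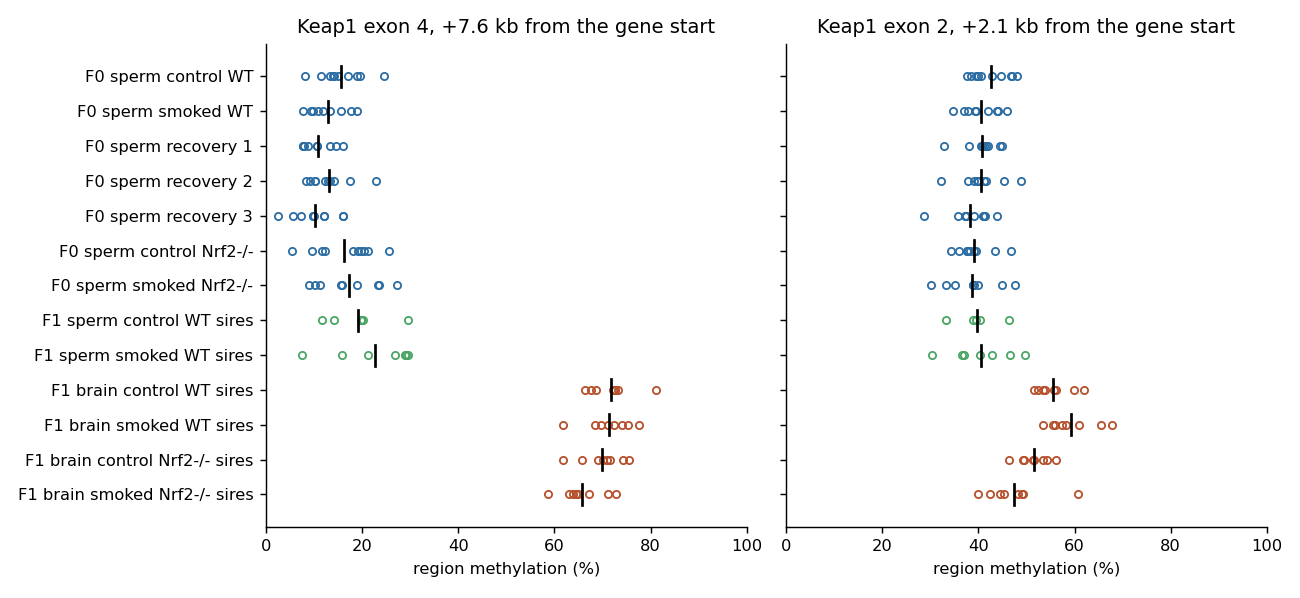
Methylation percent of a Keap1 region in exon 4 (left, 7.6 kb from the gene start) and in exon 2 (right, 2.1 kb from it) in every library (circles) of each of the 13 groups (y axis), with the group mean as a bar. In exon 4 the F0 sperm means lie at 10.1% to 17.2% and the brain means at 65.8% to 71.8%. In exon 2 they lie at 38.3% to 42.5% and 47.4% to 59.3%.

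Tissue gave the clear differences. Brain and sperm of sons of control WT sires were compared over 11 regions, 8 promoters and 7 bodies of these genes, on libraries whose column headers carried different leading numbers, so tissue and what that number stands for cannot be told apart. In brain, 5 of the 11 regions were higher and 2 were lower than in sperm (limma, adjusted over 30915 regions), beside 29.3% and 25.7% of all regions. In none of the 7 did the libraries of the tissues overlap, as in 71.8% of all called regions and 39.9% of all 30915. The 4 regions that were not called lay near the starts of Nfe2l2, Bach2, Maff and Bach1 and had means of at most 3.70% in both tissues. All called regions are described here, which goes beyond the naming rule and was decided after their values were seen.

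Both coding regions of Keap1 were higher in brain. Exon 4 ran from 11.6% to 27.04% in sperm (median 19.8%, n = 6) and from 66.4% to 81.1% in brain (median 72.4%, n = 8). The difference was 53.03 ± 2.56 points (adjusted p = 2.49e-10). Exon 2 had 40.3%, 31.8%, 46.3%, 39.6% and 38.96% in the 5 sperm libraries with enough positions and 51.6% to 61.9% in brain (median 54.7%). This difference was 16.2 ± 2.33 points (adjusted p = 4.93e-05), the smallest of the called regions. In F0 sperm the group means were 10.1% to 17.2% in exon 4, below the 19.2% and 22.7% of the F1 sperm groups, and 38.3% to 42.5% in exon 2, where the F1 sperm groups had 39.7% and 40.5%. F0 and F1 sperm were not tested against each other.

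Bach1, the repressor that competes with NRF2 at antioxidant genes, was higher in brain in exon 4. Sperm ran from 41.008% to 55.6% (median 50.3%, n = 6) and brain from 73.2% to 84.9% (median 83.5%, n = 8). The difference was 31.7 ± 2.37 points (adjusted p = 3.63e-08). In F0 sperm the same region had group means of 94.03% to 97.2%, above both F1 tissues. F0 and F1 sperm differ in mother's strain, generation and the leading number of the headers, which cannot be told apart.

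Bach2, a repressor best known from B lymphocytes, had regions that moved both ways. The intron region 19 kb into the gene had 2.46%, 7.67%, 3.48% and -1.43% in the 4 sperm libraries with enough positions and 67.6% to 77.9% in brain (median 73.1%), a difference of 70.02 ± 2.43 points (adjusted p = 1.12e-10). The upstream region had 67.9%, 70.1%, 66.7%, 68.8% and 53.3% in sperm and 81.8% to 95.9% in brain (median 92.3%), a difference of 25.8 ± 3.04 points (adjusted p = 7.75e-06). Another intron region fell from 99.2%, 94.4%, 96.8%, 95.8% and 100% in sperm to 29.9% to 61.3% in brain (median 42.4%), a difference of -55.04 ± 4.04 points (adjusted p = 6.88e-08). Exon 7 (chr4:32575260-32575355) fell from a median of 91.4% (83.3% to 93.3%, n = 6) to 41.3% (37.5% to 47.01%). The difference was -47.9 ± 1.93 points (adjusted p = 3.19e-11). Over these 4 regions of Bach2, sperm held both the lowest and the highest library value, while brain stayed between 29.9% and 95.9%.

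**Figure D5:**
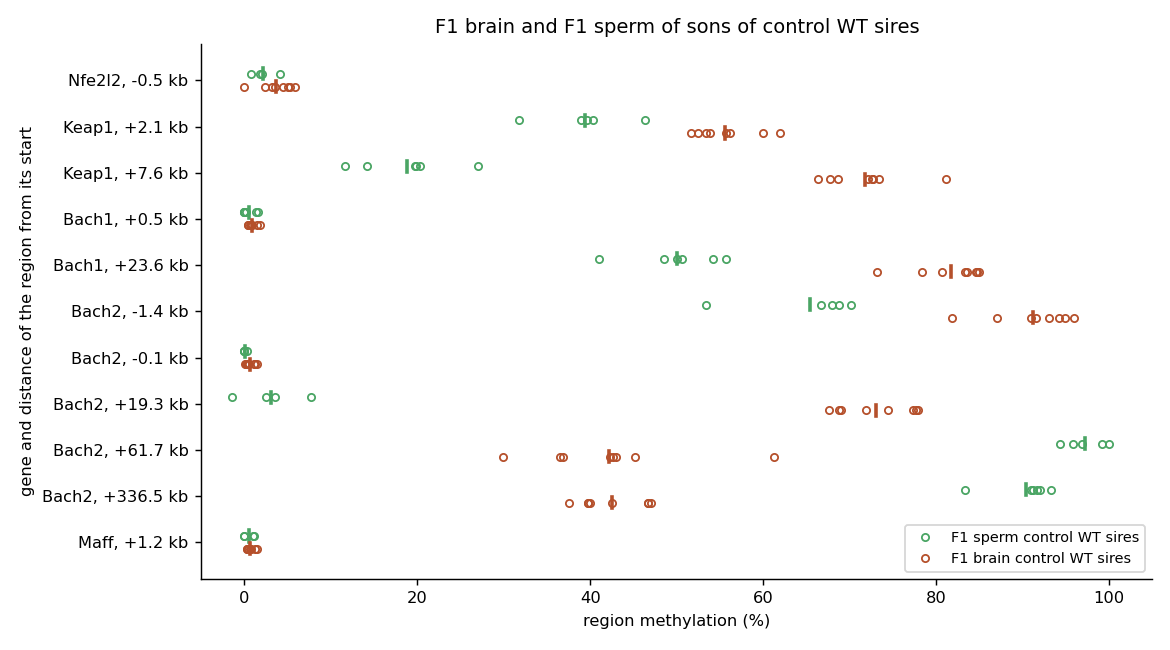
Methylation percent (x axis) of the 11 regions (y axis, gene and distance from its start in kb) in every library of F1 sperm and F1 brain of sons of control WT sires, with the mean as a bar. In the 7 called regions the libraries of the tissues do not overlap, as in 71.8% of all called regions, and 5 of the 7 are higher in brain. The other 4 sit near 0 in both tissues.

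Promoters differed little by tissue. Of 8, Maff alone was called, with 0%, 0%, 4.44%, 4.76% and 0% in sperm and 9.77% to 24.7% in brain (difference 12.9 ± 2.23 points, adjusted p = 0.000407) over 3 positions. Over all promoters 27.8% were higher and 5.18% lower in brain. The count was 3 of 8 on the arcsine scale, 4 of 8 with windows from 2 kb upstream, and 2 without sperm column 2, 3 or 4 or brain column 5 or 6. The shares over all promoters at these other settings are not given here, so these counts are not read as a result about the 10 genes. After Maff, Keap1 was next in the first fit, with a mean of 0.179% in sperm and 0.84% in brain (adjusted p = 0.0503). Among bodies, Keap1 (26.2% in sperm, 65.99% in brain), Bach1 (40.5% and 70.97%) and Bach2 (66.3% and 71.05%) were higher in brain, and Nfe2l2 (91.4% and 75.5%) and Mafg (96.6% and 57.9%) were lower. These were 3 and 2 of 7 bodies, beside 40.3% and 28.7% of all bodies.

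The comparison was repeated in sons of smoked WT sires, an alternative added after the first result was seen, in libraries that the first did not use. All 7 regions were called again in the same direction, with differences of 48.2 points (Keap1 exon 4), 18.8 points (Keap1 exon 2), 29.7 points (Bach1 exon 4), and 54.4, 32.9, -57.8 and -46.3 points for the Bach2 regions in the order above (of which the first and the last were longer here, by the positions measured). With 25 regions measured there, 9 were higher and 5 lower in brain, beside 25.1% and 26.7% of all regions. The upstream region of Nfe2l2, not called in sons of control WT sires (1.53 points, adjusted p = 0.259), was called here over a longer stretch (4.28 points, adjusted p = 0.000245). Further regions of Bach2 were called, the furthest apart being an intron region (chr4:32249850-32249924) with 93.2% to 100% in 6 sperm libraries and 10.7% to 25.03% in 8 brain libraries (difference -80.6 ± 2.14 points, adjusted p = 4.53e-13). The untranslated exon of Mafg was lower in brain by -27.2 ± 3.73 points. Most promoters and bodies rest on another number of positions here, so a change in their values cannot be read as a difference between the sons. Maff and Nfe2l2 were the 2 promoters called (2.65 points over 13 positions and 3.73 points over 17, against 3 and 7 positions in sons of control WT sires), beside 33% higher and 5.81% lower of all promoters. Of 8 bodies, 2 were higher and 3 lower, beside 31.9% and 37.1%, and the body of Bach2, called higher in sons of control WT sires, had a difference of -0.386 points over 104 positions, against 57 before (adjusted p = 0.856). The body of Nfe2l2 had -7.6 points over 9 positions, against 7 before (adjusted p = 0.074).

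The rest of the pathway was described by lists of 17 regulators and 18 targets of NRF2, drawn up with earlier results of these data known. In F0 sperm, F1 sperm and brain, 7 to 14 genes of a list were measured, and 0 of their promoters and bodies were called in any comparison, apart from the body of Tkt, a transketolase of the pentose phosphate pathway. The shares called over all promoters and bodies are those given above for each of the 3. Tkt had a mean of 41.5% in control WT and 35.4% in smoked Nrf2-/- F0 sperm over 48 positions (difference -6.14 ± 1.13 points, adjusted p = 0.000692), 1 of 12 target bodies, beside 0.266% of all bodies called lower in that comparison. Between tissues, 3 of 13 regulator promoters were higher in brain, Rbx1, a subunit of the CUL3 ligase (9.08 points), the acetyltransferase gene Ep300 (1.21 points) and Chd6 (0.662 points), and 0 were lower. Among 10 regulator bodies 3 were higher and 4 lower, with Btrc, an adaptor in another route of NRF2 breakdown, at 23.6 points and Rxra at -30.7 points. Of the targets, 1 of 9 promoters was higher, that of the sulfiredoxin gene Srxn1 (4.62 points). Among 11 target bodies 3 were higher and 6 lower, from the ferritin gene Fth1 at 39.96 points to the malic enzyme gene Me1 at -31.3 points. Counts over all promoters and bodies are those given above for the tissue comparison.

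The antioxidant response element core TGACNNNGC was searched on both strands in RefSeq promoters (a short window across the start, GRCm38.p6), which matched all 10 genes in 16 entries. It was found in the entries of Nfe2l2, Mafg and Mafk and in 1 of 3 entries of Maff, and in 12.4% of 32851 promoters overall. A match is a description of the letters and not a binding site.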

How the data were processed

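Sperm and prefrontal cortex DNA was read by RRBS (MspI and TaqαI, single reads of 50 cycles) in 112 libraries of 13 groups. The authors aligned reads with Bismark to mm10 and deposited, per CpG cytosine and library, the percent of unconverted reads. The study's methods state a read minimum for positions they analysed, but not whether it was applied to the deposited values. Read counts and tool versions are not given in the sources used here, so precision per value is unknown. Columns were tied to groups only.

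Regions (3 or more positions, over 50 bp, joined within 100 bp), promoters (within 1 kb) and bodies were fitted genome-wide with limma 3.58.1 (R 4.3.3), with at least 4 libraries per group and half-empty libraries left out. Values were adjusted for which positions a library had. Presence was tested by Fisher's exact test (scipy 1.17.1) where 10 or more libraries had a value. P-values were Benjamini-Hochberg adjusted over all features, threshold 0.05. Scripts were tested on simulated data. The members and lists were chosen with earlier results of these data known. For each comparison, the text names the member region of smallest p, and others where said. Alternatives were an arcsine scale, other joins, windows and library minimums, merged strands and left-out libraries.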

Additional observations from a re-analysis of the deposited data

Results flagged for a closer look

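A single library stood apart from its group (Dixon's test at the 95% level) in 9 of 52 groups of values examined. A single such test gives about 1 in 20 by chance. The groups share libraries and some regions lie within the bodies, so the count cannot be set against that rate. In F1 sperm of sons of control WT sires, the lowest library was at 53.3% in the upstream region of Bach2 (next 66.7%, n = 5) and at 83.3% in Bach2 exon 7 (next 90.9%, n = 6). In control WT F0 sperm, the lowest library was at 91.7% in Bach1 exon 4 (next 95.4%), and the highest were at 13.2% in the Bach2 intron region at chr4:32257979-32258402 (next 6.84%) and at 22.5% in Keap1 exon 3 (next 13.4%), with n = 10 each.

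In brain of sons of control WT sires (n = 8), the highest library was at 81.1% in Keap1 exon 4 (next 73.3%), at 73.7% in the Keap1 body as measured for the tissue comparison (next 66.4%) and at 24.7% in the Maff promoter (next 16.7%). In brain of sons of smoked Nrf2-/- sires, the highest library was at 60.8% in Keap1 exon 2 (next 49.3%), while the group mean was the lowest of the 4 brain groups.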

How the results depend on the processing

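Of the counts of called features, 215 alternative values stayed within 1.5 times the first value and 13 did not, and of the single features 325 kept direction and side of the threshold. A first count of 0 that stays at 0 also meets this rule, and the number of such counts among the 215 is not given here. Brain against sperm, called member promoters (1 of 8) numbered 3 of 8 on the arcsine scale, 4 of 8 from 2 kb upstream to 500 bp downstream, 0 of 1 with at least 6 libraries per group, 2 of 9 in sons of smoked WT sires, and 1 to 2 with each library left out in turn (2 without sperm column 2, 3 or 4 or brain column 5 or 6). With at least 6 libraries per group 2 of 4 bodies and 2 of 3 regions were called, where fewer features were measured, and 14 of 25 regions in sons of smoked WT sires. At 6 libraries 8633 regions and 7957 bodies were measured over the genome, against 30915 and 14234 in the first fit. Apart from sons of smoked WT sires, the shares over all features at these settings are not given here, so these counts cannot be set beside them. Among bodies, Bach2 moved to 1.99 points with at least 6 libraries (adjusted p = 0.219) and to -0.386 points in sons of smoked WT sires, and Nfe2l2 to -7.6 points there (adjusted p = 0.074). The Mafg intron region, 0.672 points for smoked against control Nrf2-/- sperm, had -0.153 points when positions farther apart were joined. Presence called 4 of 36 Nfe2l2 positions in unexposed F0 libraries alone, beside 0.0425% of all positions in that direction and 0.0221% in the other. The upstream positions had too few values to be tested there. Beyond these constructions the cause was not tested. No paired analysis was possible because the columns carry no replicate number of the labels. Depth per value is unknown, and at these group sizes even differences of many points can be missed, most of all in F1 sperm, so a count of 0 does not show that nothing differed.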
